A study of Mus musculus with 9 samples.

Results

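Tests for acute kidney injury measure a small set of proteins in urine or plasma, and the transcripts of 9 of their genes were followed here in mouse kidney after cisplatin. They are Havcr1, Lcn2, Spp1, Clu, Slpi, Timp1, Timp2, Igfbp7 and Cst3. These genes were chosen by name, with earlier results of these data known, and found by symbol among 55385 gene IDs. Bulk RNA sequencing had been done on kidneys of C57BL/6 mice in 3 groups of 3 libraries that the labels call biological repeats. Sham mice received an intraperitoneal injection of saline, and the other mice received 1 intraperitoneal injection of cisplatin at 20 mg/kg and were sampled 3 or 7 days later. Cisplatin, a platinum compound used against tumours, damages DNA and is toxic to tubule cells. The age and sex of the mice, and whether each repeat was 1 animal or a pool, are not stated by the labels. The p-values thus measure only the spread between these libraries, which may not be that between single mice. The series addresses how the renal transcriptome differs between phases of acute kidney injury. What was measured is RNA in kidney tissue, not protein in urine.

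Injured tubule cells make and release proteins that a healthy kidney hardly makes, and these appear in urine before plasma creatinine rises. KIM-1 (Havcr1) is a membrane protein of injured proximal tubule whose outer part is shed, NGAL (Lcn2) is a lipocalin that binds iron-carrying siderophores, osteopontin (Spp1) is a secreted integrin ligand, and clusterin (Clu) is a secreted chaperone. Slpi, Timp1 and Timp2 encode inhibitors of proteases, and the urinary product of TIMP-2 and IGFBP7 is used as a test of tubule stress. Cystatin C (Cst3) is a protease inhibitor made by most cells, filtered freely by the glomerulus and taken up by the proximal tubule, so its plasma level is used as a marker of filtration.

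All 9 genes are annotated as protein-coding on GRCm38 in GENCODE M21. They lie at chr11:46735080-46779578 (Havcr1, ENSMUSG00000040405), chr2:32384633-32388252 (Lcn2, ENSMUSG00000026822), chr5:104435118-104441050 (Spp1, ENSMUSG00000029304), chr14:65968483-65981547 (Clu, ENSMUSG00000022037), chr2:164354070-164389095 (Slpi, ENSMUSG00000017002), chrX:20870166-20874735 (Timp1, ENSMUSG00000001131), chr11:118301069-118355740 (Timp2, ENSMUSG00000017466), chr5:77349240-77408041 (Igfbp7, ENSMUSG00000036256) and chr2:148871722-148875692 (Cst3, ENSMUSG00000027447). The 250 bases before the start site are shown for 4 genes whose transcripts rose together at day 3 (Lcn2, Slpi, Spp1 and Timp1) and for the 2 whose transcripts fell (Igfbp7 and Cst3), so that the promoters of both kinds can be compared. They are from RefSeq on GRCm38.p6, 5′ to 3′ on the gene's own strand, and lie at chr2:32387740-32387989 (Lcn2, minus strand), chr2:164356508-164356757 (Slpi, minus), chr5:104434861-104435110 (the first of 2 Spp1 starts, plus), chrX:20869916-20870165 (Timp1, plus), chr5:77408046-77408295 (Igfbp7, minus) and chr2:148875513-148875762 (Cst3, minus). Capitals mark a match to one of the motifs named after the sequences.
Lcn2: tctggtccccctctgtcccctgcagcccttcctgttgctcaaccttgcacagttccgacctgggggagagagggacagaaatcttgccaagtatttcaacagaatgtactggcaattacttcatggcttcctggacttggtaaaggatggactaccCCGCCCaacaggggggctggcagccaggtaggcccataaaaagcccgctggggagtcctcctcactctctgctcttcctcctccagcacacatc
Slpi: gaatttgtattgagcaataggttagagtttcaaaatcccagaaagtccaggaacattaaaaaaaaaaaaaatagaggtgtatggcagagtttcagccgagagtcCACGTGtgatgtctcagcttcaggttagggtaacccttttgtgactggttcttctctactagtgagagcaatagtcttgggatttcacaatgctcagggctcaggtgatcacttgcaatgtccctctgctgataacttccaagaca
Spp1: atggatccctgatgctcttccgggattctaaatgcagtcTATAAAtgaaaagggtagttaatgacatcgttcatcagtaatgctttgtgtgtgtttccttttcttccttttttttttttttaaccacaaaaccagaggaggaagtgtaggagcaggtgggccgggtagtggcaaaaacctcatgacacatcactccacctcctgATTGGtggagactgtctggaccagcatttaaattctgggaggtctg
Timp1: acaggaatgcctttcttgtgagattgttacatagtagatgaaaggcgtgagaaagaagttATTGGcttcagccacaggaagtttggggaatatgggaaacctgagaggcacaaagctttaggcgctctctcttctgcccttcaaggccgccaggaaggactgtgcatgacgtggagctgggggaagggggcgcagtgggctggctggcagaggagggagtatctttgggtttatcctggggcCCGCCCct
Igfbp7: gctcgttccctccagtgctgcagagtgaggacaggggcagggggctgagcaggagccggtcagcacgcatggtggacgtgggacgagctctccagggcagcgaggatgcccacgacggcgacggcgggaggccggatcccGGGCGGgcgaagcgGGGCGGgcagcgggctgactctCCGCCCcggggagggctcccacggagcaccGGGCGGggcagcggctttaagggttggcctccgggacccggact
Cst3: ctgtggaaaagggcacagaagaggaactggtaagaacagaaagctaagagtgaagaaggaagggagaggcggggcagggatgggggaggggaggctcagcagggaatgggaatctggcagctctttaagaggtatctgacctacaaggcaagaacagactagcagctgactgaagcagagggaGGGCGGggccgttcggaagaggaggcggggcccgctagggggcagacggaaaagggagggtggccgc

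The motifs were searched on both strands in these 250 bases of the 11 starts listed for 8 of the 9 genes, and no matches of different motifs overlapped. TGANTCA (AP-1), TTCNNNGAA (STAT) and the NF-kB motif, which are sites of factors known to act in injured tubule, had no match in any of the 11 starts. Among all 32851 promoters in the RefSeq table, 6.75%, 7.02% and 3.90% held them. TATAAA, in 12.4% of all promoters, was found in Spp1 from 211 to 206 bases before the start. CACGTG, an E-box in 6.02% of all promoters, was found in Slpi from 146 to 141 bases before the start. GGGCGG, the GC box in 32.7% of all promoters, was found 4 times in Igfbp7, whose window was 74% G or C, and once each in Lcn2, Timp1, Timp2 and Cst3. CCAAT, in 33.8% of all promoters, was found once each in Spp1, Timp1 and Timp2. A match is a description of letters in this window and not a bound site.

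Values are FPKM, fragments counted per unit of transcript length and relative to the library, so levels of different genes can be set side by side. The FPKM of a library summed to between 421810 and 509537, 11647 to 13183 genes reached 1 FPKM, and libraries of a group correlated at 0.942 to 0.980 (Pearson r of log2(FPKM + 1) across genes). Read depth is unknown, since the files hold no counts. In sham, none of the 16 proximal tubule, 10 loop and distal tubule and 10 collecting duct marker genes was under 1 FPKM in all 3 libraries. Testing covered genes that reached 1 FPKM in at least 3 libraries, 13718 in all, and used limma on log2(FPKM + 1), and a gene is called where its Benjamini-Hochberg adjusted p over all of them is under 0.05. All 9 biomarker genes passed that filter. Slpi reached 1 FPKM in the 3 day 3 libraries and in no other, so it was tested only because it was high there. Timp1 reached it in the 3 day 3 libraries, sham 2 and day 7 library 2.

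At 3 days after cisplatin most of these transcripts stood far above sham, and at 7 days none of them was called higher than sham. Lcn2, Slpi, Timp1, Havcr1, Spp1 and Clu rose at day 3, Igfbp7 and Cst3 fell, and Timp2 was not called. These are 6 genes higher and 2 lower of 9, where 39.3% of all tested genes were called higher and 20.6% lower. The 6 include Slpi, tested only because it was high at day 3. Since the 9 genes were chosen with earlier results of these data known, these counts are a description and not a test. Lcn2 and Slpi held ranks 3 and 4 of 13718 by log2 fold change from the top, followed by Timp1 at 13, Havcr1 at 19, Spp1 at 23 and Clu at 727. This order depends on the pseudocount of 1, since with 0.1 the log2 fold change of Slpi was 8.31 and that of Lcn2 7.12. The median log2 fold change of the 9 genes was 4.38, beside 0.25 over all tested genes. Scaling by median-of-ratios moved that overall median to 0.03 and the share of higher genes among all called from 65.6% to 50.8%, but the 6 higher and 2 lower biomarker calls held. Relative to the overall median of 0.25, the log2 differences of these genes ran from 6.46 in Lcn2 to -1.20 in Igfbp7.

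**Figure D1:**
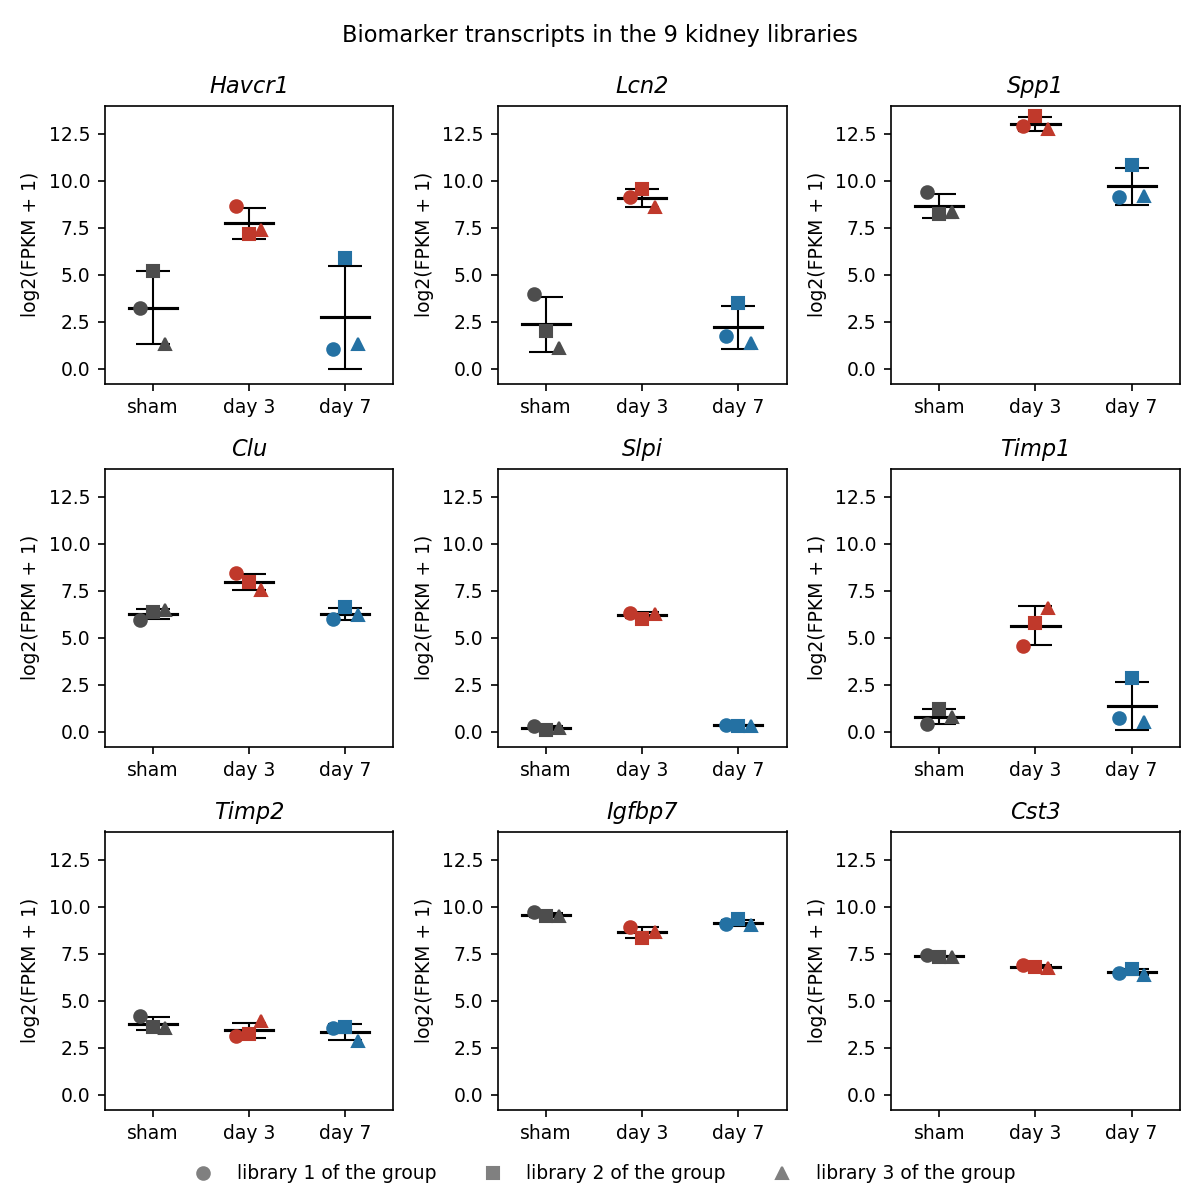
Level of each biomarker transcript, as log2(FPKM + 1), in the 3 sham, 3 day 3 and 3 day 7 libraries. Points are libraries, with a symbol for each library number, long bars are group means and whiskers are 1 SD (n = 3). Lcn2, Spp1, Clu, Slpi, Timp1 and Havcr1 sit above both other groups at day 3, and day 7 library 2 (square) is the highest of its group in 8 of the 9 panels.

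Among the tubule injury proteins, Havcr1 measured 8.29, 35.45 and 1.5 FPKM in sham against 402.12, 141.44 and 163.26 on day 3 and 1.04, 58.22 and 1.45 on day 7. Every day 3 library was above every other library, but sham libraries already differed 23.6-fold among themselves and day 7 libraries 56.0-fold. The rise at day 3 was 4.48 ± 1.35 on the log2 scale (SE; 95% confidence interval 1.41 to 7.55, adjusted p = 0.0186, limma), with the widest interval of the 9 genes. That call had an adjusted p of 0.0661 (limma, log2 fold change 3.52) when sham 3 was left out and of 0.0603 (4.02) when day 3 library 1 was, and so was lost. Havcr1 was highest in day 3 library 1, where the summed FPKM of 16 proximal tubule markers, most of it Kap, was lowest (2738, against 13020 and 17098 in the other day 3 libraries). Markers of that list did not all follow the sum. In library 1 Hnf4a (47.07 FPKM, against 17.08 and 20.1) and Cubn (3.1, against 1.57 and 2.21) were highest. Lrp2 was in the middle there (9.29, against 8.34 and 14.3), and single values of the other markers are not given here. In bulk kidney, fewer cells of a type and less RNA per cell cannot be told apart.

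Lcn2 measured 14.88, 2.97 and 1.17 FPKM in sham against 556.28, 743.34 and 381.11 on day 3 and 2.31, 10.09 and 1.59 on day 7. Its day 3 libraries lay far above all others, with a ratio of mean FPKM of 88.4 to sham. The log2 fold change at day 3 was 6.71 ± 0.75 (SE; 95% confidence interval 5.001 to 8.43, adjusted p = 0.000107, limma). Lcn2 went from ranks between 2656 and 11158 of all genes by FPKM in sham to ranks 49, 45 and 71 at day 3.

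Spp1 was by far the most abundant of these transcripts at day 3. It measured 675.69, 300.47 and 320.29 FPKM in sham against 7699.07, 11192 and 6822.2 on day 3 and 551.74, 1809.51 and 575.54 on day 7. At day 3 it ranked 9, 9 and 16 among all genes and took 1.83%, 2.33% and 1.41% of the FPKM of each library, against 0.0610% to 0.133% in sham. The mean rose 19.8-fold, and the log2 fold change was 4.38 ± 0.49 (SE; 95% confidence interval 3.27 to 5.49, adjusted p = 0.000105, limma). A same-strand gene model inside Spp1, Gm42793, moved from at most 0.81 FPKM in sham to 16.75, 32.67 and 17.78 at day 3, and reads shared by both cannot be told apart.

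Clu moved least of the genes that rose. It measured 60.37, 80.73 and 87.92 FPKM in sham against 341.28, 246.63 and 182.56 on day 3 and 62.76, 97.1 and 72.47 on day 7. The lowest day 3 library was above the highest sham and day 7 libraries. The mean rose 3.36-fold, with a log2 fold change of 1.71 ± 0.26 (SE; 95% confidence interval 1.13 to 2.29, adjusted p = 0.000510, limma).

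The protease inhibitors split. Slpi, an inhibitor of neutrophil elastase and cathepsin G, measured 0.22, 0.06 and 0.13 FPKM in sham against 79.09, 63.31 and 75.01 on day 3 and 0.27, 0.25 and 0.25 on day 7. It was near 0 in sham, ranked 541, 629 and 526 among all genes at day 3, and varied only 1.25-fold among the day 3 libraries. The ratio of mean FPKM was 530.3, while the log2 fold change on the log2(FPKM + 1) scale, which understates changes of low genes, was 6.01 ± 0.12 (SE; 95% confidence interval 5.75 to 6.27, adjusted p = 5.13e-08, limma). The microRNA gene Mir7678 lies inside Slpi and was listed at 0 in sham and at 1.22, 2.93 and 0.74 FPKM at day 3.

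Timp1, which inhibits matrix metalloproteinases, measured 0.31, 1.32 and 0.73 FPKM in sham against 22.25, 52.97 and 96.1 on day 3 and 0.64, 6.13 and 0.44 on day 7. All day 3 libraries were above all others, but they differed 4.32-fold among themselves. Its log2 fold change was 4.83 ± 0.67 (SE; 95% confidence interval 3.31 to 6.36, adjusted p = 0.000333, limma). Timp2, its close relative, measured 17.11, 11.03 and 10.86 FPKM in sham against 7.82, 8.44 and 13.9 on day 3 and 10.86, 11.09 and 6.24 on day 7. The groups overlapped throughout. The log2 difference of Timp2 at day 3 was -0.35 ± 0.28 (SE; 95% confidence interval -0.99 to 0.28, adjusted p = 0.302, limma), an interval that still allows a fall of nearly 1 log2 unit.

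Igfbp7, which binds insulin-like growth factors and is secreted into matrix, was the most abundant of the 9 transcripts in sham. It measured 834.02, 735.08 and 723.3 FPKM in sham against 478.3, 319.04 and 401.93 on day 3 and 541.16, 646.47 and 526.2 on day 7. Every day 3 library was below every sham and day 7 library. The mean at day 3 was 0.523 of that in sham, with a log2 fold change of -0.95 ± 0.16 (SE; 95% confidence interval -1.32 to -0.57, adjusted p = 0.00114, limma). The urinary test multiplies protein levels, which were not measured here. In kidney RNA, the product of the Timp2 and Igfbp7 FPKM was 14270, 8108 and 7855 in sham against 3740, 2693 and 5587 on day 3 and 5877, 7169 and 3283 on day 7. The product was thus lower in every day 3 and day 7 library than in every sham library. It was not tested. The end of Igfbp7 overlaps Polr2b on the opposite strand, which was at 9.63 to 18.74 FPKM, and the labels do not state the strand setting of the counting.

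Cst3 had the narrowest spread of the 9 in sham, 1.07-fold, with libraries at 168.3, 161.2 and 157.72 FPKM. It was at 117.54, 109.91 and 107.22 FPKM at day 3 and at 88.78, 100.73 and 80.61 at day 7. The 3 groups did not overlap. At day 3 the log2 fold change was -0.54 ± 0.11 (SE; 95% confidence interval -0.79 to -0.29, adjusted p = 0.00280, limma). Median-of-ratios scaling made it larger (-0.83) and a correction for GC content and length, added after seeing the data, made it smaller (-0.30, adjusted p = 0.0486).

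At day 7 Cst3 was called lower than sham, and the other 8 genes were not called. Its log2 fold change was -0.85 ± 0.11 (SE; 95% confidence interval -1.10 to -0.60, adjusted p = 0.00182, limma). Against this count of 0 higher and 1 lower, 19.3% of all tested genes were called higher and 10.4% lower. At an unadjusted limma p under 0.05, 0 of the 9 were higher and 2 lower, Cst3 and Igfbp7. With median-of-ratios scaling the share of higher genes among all called went from 64.9% to 50.2%. The Cst3 call was lost with the GC content and length correction (log2 fold change -0.23, adjusted p = 0.256), under which calls over all genes went from 4075 to 856. Igfbp7 was lower in all 3 day 7 libraries than in any sham library but was not called (-0.42 ± 0.16, adjusted p = 0.0850). It was called lower under median-of-ratios scaling (-0.54, adjusted p = 0.0202), in the 6 libraries alone (adjusted p = 0.0469) and when day 3 library 1 was left out (0.0453), and with the GC content and length correction its difference was 0.19.

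The intervals of the other genes at day 7 differed widely in what they allow. Spp1 differed from sham by 1.05 ± 0.49 on the log2 scale (SE; 95% confidence interval -0.07 to 2.16, adjusted p = 0.139, limma). Havcr1 differed by -0.51 with an interval from -3.58 to 2.57, Lcn2 by -0.18 (-1.89 to 1.54) and Timp1 by 0.56 (-0.96 to 2.08), which leaves room for large differences either way. Clu differed by 0.01 (-0.57 to 0.60) and Timp2 by -0.44 (-1.08 to 0.20). Slpi stood higher in every day 7 library than in any sham library, by 0.15 (-0.12 to 0.41, adjusted p = 0.371), at no more than 0.27 FPKM. It was called higher with the GC content and length correction (0.63, adjusted p = 0.0306).

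Day 7 library 2 carried the highest value of its group in 8 of the 9 genes, all but Slpi, and in 56.4% of all tested genes. In it Havcr1 stood at 58.22 FPKM against 1.04 and 1.45 in the other day 7 libraries, Spp1 at 1809.51 against 551.74 and 575.54, and Timp1 at 6.13 against 0.64 and 0.44. Without it the day 7 differences from sham became -2.08 in Havcr1 (adjusted p = 0.173, limma), -0.82 in Lcn2, 0.49 in Spp1 and -0.18 in Timp1 on the log2 scale, and none of these was called. Its summed FPKM was also the highest of its group for 16 neutrophil markers (23.75, against 4.97 and 10.76), 19 macrophage markers (148.53, against 61.28 and 53.72) and 12 fibroblast markers (94.44, against 48.6 and 46.51), and the lowest for the proximal tubule markers (21222, against 31747 and 30364). Of that tubule list, Lrp2 (116.09 FPKM) and Cubn (27.15) lay between the other day 7 libraries. Hnf4a was lowest in library 2 (145.45, against 164.39 and 147.8). The part of these cells in the biomarker levels was not tested. Sham 1 was the highest sham library for 6 of the 9 genes and for 50.4% of all tested genes, with Lcn2 at 14.88 FPKM against 2.97 and 1.17.

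Between day 3 and day 7, 7 of the 9 genes fell, Igfbp7 rose and Timp2 was not called, where 33.7% of all tested genes were called lower and 21.7% higher. These comparisons share the day 3 libraries with the contrast against sham. With median-of-ratios scaling the share of higher genes among all called was 49.99% in place of 39.16%. The log2 fold change was -6.89 in Lcn2, -5.86 in Slpi, -4.99 in Havcr1, -4.27 in Timp1, -3.33 in Spp1 and -1.69 in Clu, with adjusted p between 6.37e-08 (Slpi) and 0.0125 (Havcr1) by limma. Igfbp7 rose by 0.53 ± 0.16 (SE, adjusted p = 0.0238). Its adjusted p was 0.0590 with no filter, 0.0708 with quantile normalization, and 0.0788, 0.0514 and 0.0805 when day 3 library 2, day 3 library 3 and day 7 library 2 were left out, so the call was lost in these 5 settings. Cst3 fell further, by 0.31 ± 0.11 (adjusted p = 0.0394). That call was lost in 11 of the 18 other settings tried, and the difference was 0.070 (adjusted p = 0.621) with the GC content and length correction.

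**Figure D2:**
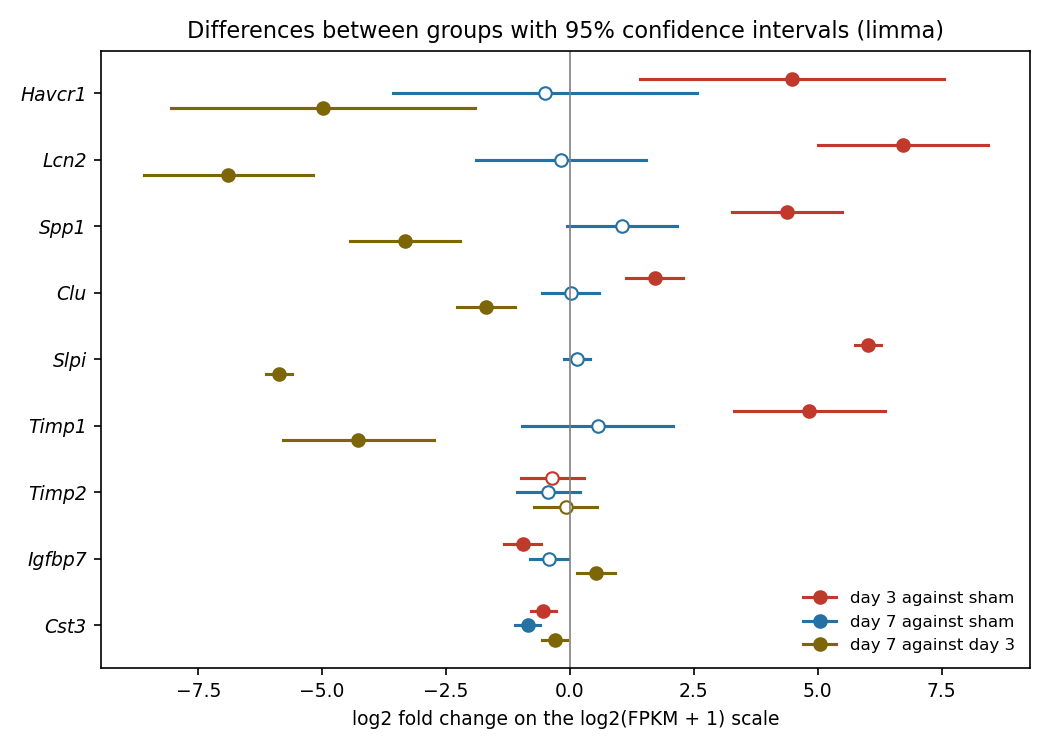
Log2 fold change of each biomarker transcript on the log2(FPKM + 1) scale in the 3 comparisons between groups. Points are limma estimates with 95% confidence intervals, filled where the adjusted p is under 0.05 and open where it is not. For Havcr1, Lcn2, Spp1, Clu, Slpi and Timp1 the day 3 and day 7 against day 3 points lie on opposite sides of 0, while Cst3 alone has all 3 points filled and below 0.

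The order of the 9 transcripts by FPKM was rearranged at day 3. In sham it ran Igfbp7, Spp1, Cst3, Clu, Havcr1, Timp2, Lcn2, Timp1 and Slpi from the highest mean (764 ± 60.8 FPKM, SD, n = 3) to the lowest (0.137 ± 0.080). The first 4 did not overlap with their neighbours, while Havcr1, Timp2 and Lcn2 overlapped, as did Lcn2 and Timp1. At day 3 it ran Spp1 (8571 ± 2312), Lcn2 (560 ± 181), Igfbp7 (399.8 ± 79.7), Clu (257 ± 79.8), Havcr1 (236 ± 145), Cst3 (112 ± 5.35), Slpi (72.5 ± 8.19), Timp1 (57.1 ± 37.1) and Timp2 (10.1 ± 3.35). There Lcn2 overlapped with Igfbp7, Igfbp7 with Clu, Clu with Havcr1, and Slpi with Timp1. At day 7 the sham order was back except that Spp1 (979 ± 719) stood above Igfbp7 (571 ± 65.5) with overlapping libraries. Cst3 and Clu overlapped there too, as did the neighbours from Havcr1 down to Timp1.

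Close relatives of the biomarkers did not move as a block. Over all tested genes 39.3% were called higher at day 3 and 20.6% lower, with a median log2 fold change of 0.25. Of the 4 tested genes of the TIMP list, Timp1 was called higher at day 3 and Timp3 lower, and Timp2 and Reck were not called. Timp3, an inhibitor bound to matrix, measured 137.77, 185.96 and 168.93 FPKM in sham against 110.49, 68 and 98.18 on day 3 (log2 fold change -0.84 ± 0.22, SE, adjusted p = 0.00853, limma). Of 10 tested IGFBPs and relatives 2 (20%) were higher and 4 (40%) lower, with a median log2 fold change of -0.84. The 2 higher were Ccn1 (2.57 ± 0.29, adjusted p = 0.000106) and Ccn2 (2.35 ± 0.36, adjusted p = 0.000580), matricellular proteins with an IGFBP-like domain, and Igfbp5, which binds growth factors with high affinity, went from 53.8 ± 8.16 to 19.7 ± 9.50 FPKM (SD, n = 3). Igfbp1 was lower by 0.94 ± 0.23 in log2 units at low levels, from 1.83, 0.72 and 2.35 FPKM in sham to 0.49, 0.34 and 0.16.

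Among 7 tested cystatins and relatives, 3 (42.9%) were higher at day 3 and 2 (28.6%), Cst3 and Kng2, lower. Over all tested genes these shares were 39.3% and 20.6%. Cstb, the intracellular cystatin B, was at 86.2 ± 12.9 FPKM in sham and 432 ± 23.2 (SD, n = 3) on day 3 (log2 fold change 2.32 ± 0.15, SE, adjusted p = 9.85e-06, limma), and so stood above Cst3 at day 3 although below it in sham. Kng2, a kininogen with cystatin domains, went from 104 ± 33.6 to 43.1 ± 17.3 FPKM (-1.29 ± 0.31, adjusted p = 0.00648). Cst6 and Fetub were called higher at mean levels of 1.41 and 4.39 FPKM, Cst6 having been tested only because it was high at day 3.

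Of 7 tested genes with WAP or Kunitz inhibitor domains, Slpi and Spint1 (28.6%) were higher at day 3, Wfdc15b (14.3%) was lower and 4 were not called. Over all tested genes 39.3% were called higher and 20.6% lower. Wfdc15b measured 300.13, 226.75 and 131.33 FPKM in sham against 12.14, 26.1 and 9.06 on day 3, a log2 fold change of -3.77 ± 0.38 (SE, adjusted p = 6.54e-05, limma). Spint1, which inhibits the activator of hepatocyte growth factor, went from 25.5 ± 1.65 to 52.3 ± 8.75 FPKM (SD, n = 3). Of 8 tested lipocalins 3 (37.5%) were higher, Lcn2 among them, and 3 (37.5%) lower, beside 39.3% and 20.6% of all tested genes. Ptgds, a prostaglandin D synthase, fell by 1.73 ± 0.19 in log2 units (adjusted p = 9.60e-05), C8g, a complement subunit, by 1.78 ± 0.22 (adjusted p = 0.000170) and Apom, a lipoprotein component, by 1.64 ± 0.54 (adjusted p = 0.0277). Orm1, an acute phase protein, rose by 1.79 ± 0.59 (adjusted p = 0.0263) with library values of 1.96, 9.05 and 0.65 FPKM, and the calls of Apom and Orm1 were lost in 6 and 3 of the 18 other settings tried. In the TIM list Havcr1 was called and Timd2 was not, and in the list of osteopontin's relatives Spp1 was the 1 tested gene of 5.

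**Figure D3:**
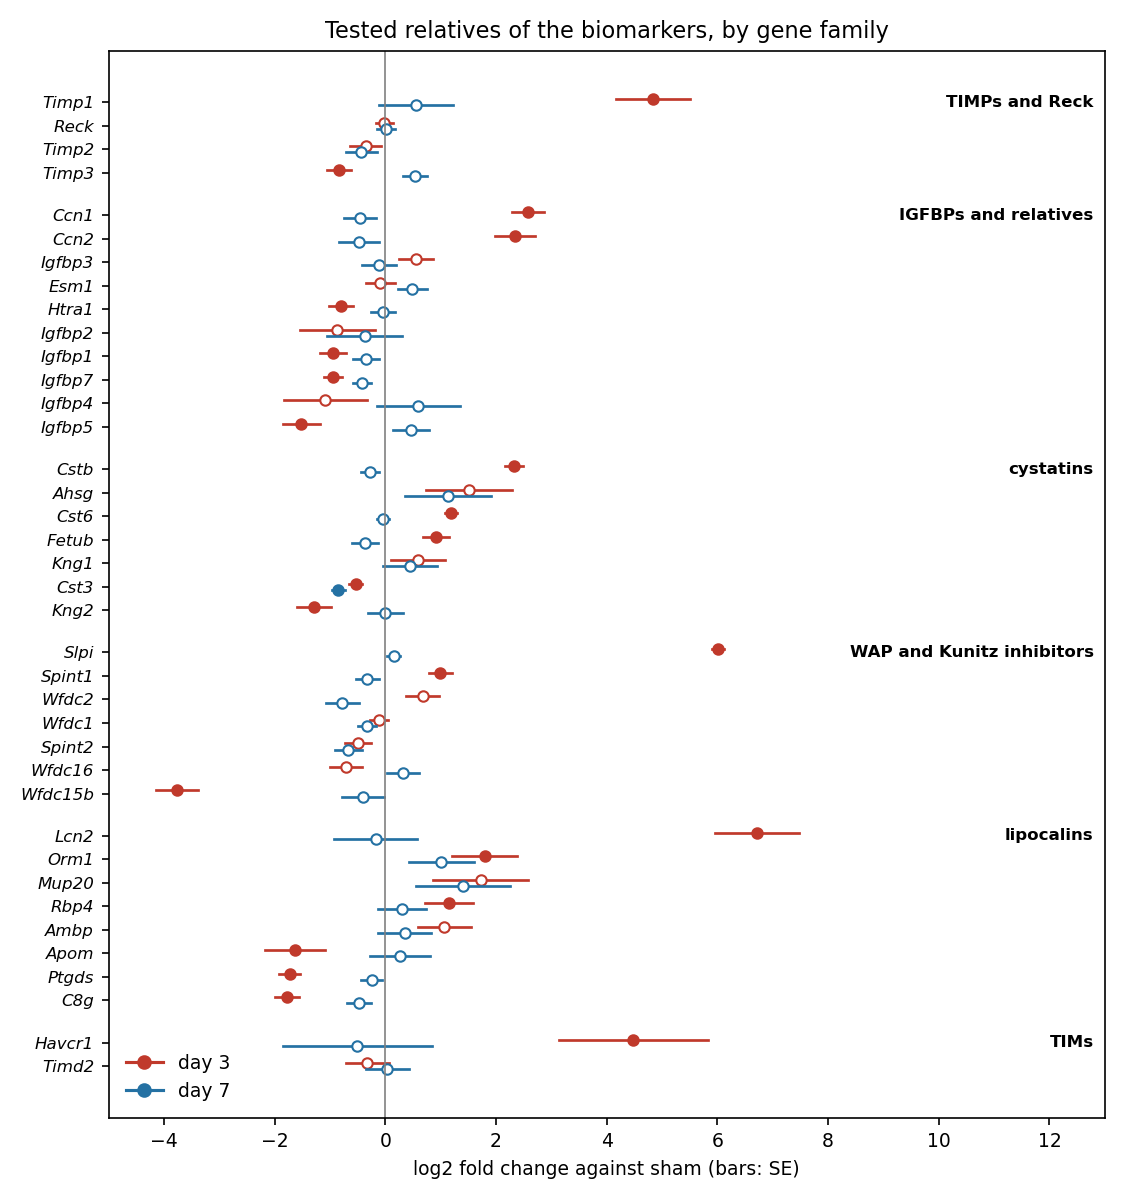
Log2 fold change against sham at day 3 and day 7 for the tested members of 6 gene families of the biomarkers, with SE bars (limma). Filled points have an adjusted p under 0.05. Timp1, Slpi, Lcn2 and Havcr1 each lie to the right of all relatives of their own family at day 3, and among the day 7 points Cst3 is the filled one.

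Megalin, cubilin and amnionless, which take filtered proteins back into the proximal tubule, were lower at day 3 in transcript. Of the 22 tested receptors and uptake genes 10 (45.5%) were higher and 6 (27.3%) lower, near the 39.3% and 20.6% of all tested genes, with a median log2 fold change of 0.79. Lrp2, which encodes megalin, measured 37.68, 82.71 and 100.01 FPKM in sham against 9.29, 8.34 and 14.3 on day 3 and 102.47, 116.09 and 129.56 on day 7 (-2.60 ± 0.34 at day 3, SE, adjusted p = 0.000243, limma). Cubn, which encodes cubilin, was lower by 2.94 ± 0.20 in log2 units (adjusted p = 1.04e-05) and Amn, the membrane anchor of cubilin, by 2.07 ± 0.18 (adjusted p = 3.28e-05). The day 3 libraries of all 3 genes lay below all sham and day 7 libraries. Of the integrin chains in the list that were called, some were higher and Itgb5 was lower (37.74, 34.64 and 32.56 FPKM in sham against 16.42, 12.94 and 14.78). Itgb1, a chain of osteopontin receptors, went from 36.4 ± 3.77 to 149 ± 12.1 FPKM (SD, n = 3; 2.00 ± 0.14, adjusted p = 1.33e-05) and stood at 64.31, 78.92 and 57.6 FPKM at day 7. Itgb3, another such chain, was at most 0.33 FPKM in sham and reached 3.56, 6.49 and 8.49 at day 3. It was tested only because it was high there.

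Among 23 tested proteases that these inhibitors act on or that shed membrane proteins, 16 were higher at day 3 and 3 lower, with a median log2 fold change of 0.92. Of the 23, 5 were tested only because they were high at day 3, Adamts4 and Mmp10 among them, and all 5 count among the 16. Adamts1, a secreted metalloproteinase, measured 3.85, 4.89 and 5.94 FPKM in sham against 44.97, 48.4 and 53.45 on day 3 and 8.83, 20.06 and 8.19 on day 7 (3.09 ± 0.30 at day 3, SE, adjusted p = 4.88e-05, limma). Adamts4 was at most 0.11 FPKM in sham and at 2.65, 11.54 and 8.84 at day 3. Mmp10, a stromelysin, was listed at 0 in all sham and day 7 libraries and stood at 3.76, 7.44 and 6.76 FPKM at day 3. The largest of the 3 falls were those of the meprins, metalloproteinases of the proximal tubule brush border. Mep1b went from 57.2 ± 22.4 to 2.74 ± 2.48 FPKM (SD, n = 3; -4.12 ± 0.51, adjusted p = 0.000177) and Mep1a from 458 ± 110 to 64.8 ± 26.5 FPKM (-2.85 ± 0.29, adjusted p = 6.05e-05). Elane, which encodes neutrophil elastase, a target of the Slpi protein, was at most 0.05 FPKM in every library. The elastase protein was not measured, so its amount in the kidney is unknown.

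Of 36 tested transcription factors, cytokines and receptors known to act on these genes 30 (83.3%) were higher at day 3 and 2 (5.56%) lower. Over all tested genes these shares were 39.3% and 20.6%. The median log2 fold change of the list was 1.58 beside 0.25 over all tested genes. The list was chosen with earlier results of these data known, so these shares are a description and not a test. At day 7, 3 of the 36 were higher and 5 lower than sham, where 19.3% of all tested genes were called higher and 10.4% lower. Fosl1, a subunit of AP-1, measured 0, 0.13 and 0 FPKM in sham against 28.05, 35.41 and 35.59 on day 3. It was tested only because it was high there, as were Runx1 and Sox9, and these genes count among the 30 higher. Atf3, a stress-induced transcription factor, went from 1.23 ± 0.614 to 34.2 ± 9.45 FPKM (SD, n = 3), a log2 difference of 3.97 ± 0.29 (SE, limma adjusted p = 1.55e-05). Klf6, a zinc finger factor, went from 4.62 ± 0.753 to 82.3 ± 2.77 FPKM (3.90 ± 0.20, adjusted p = 3.69e-06).

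Of 39 tested other genes whose products have been used as kidney injury markers, 15 (38.5%) were higher at day 3 and 11 (28.2%) lower, beside 39.3% and 20.6% of all tested genes, with a median log2 fold change of 0.95. Krt20, a keratin, had the largest rise of the list (8.88 ± 0.41, SE, adjusted p = 2.32e-06, limma). Chil3, a chitinase-like protein of myeloid cells, was at most 0.11 FPKM in sham against 18.66, 98.4 and 59.41 on day 3 and 5.07, 4.57 and 2.91 on day 7 (5.54 ± 0.49 at day 3, adjusted p = 3.64e-05). Against sham at day 7, 4 of the list were higher and 3 lower, where 19.3% of all tested genes were called higher and 10.4% lower.

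Neutrophils, macrophages and fibroblasts can also make several of these proteins. The summed FPKM of the marker list of each of these cell types was higher in every day 3 library than in sham. Single markers differed in direction. The summed FPKM of 16 neutrophil markers ranged from 3.07 to 15.06 in sham, and on day 3 from 32.61 to 114.8, before 4.97 to 23.75 on day 7. Of the 16, 4 were tested, 1 of them (Mmp8) only because it was high at day 3. S100a8 rose by 2.80 ± 0.65 and Retnlg by 2.63 ± 0.37 in log2 units (SE, adjusted p = 0.00550 and 0.000371, limma), but 8 of the 16 stayed under 1 FPKM in all day 3 libraries. Mpo was listed at 0 in all sham and day 3 libraries. At day 3 the neutrophil sum was 32.61, 114.8 and 60.35 in libraries 1, 2 and 3. Lcn2 was also highest in library 2 but lowest in library 3 (556.28, 743.34 and 381.11 FPKM), and Slpi was highest in library 1. The macrophage sum was 97.86 to 106.53 in sham and 197.28 to 361.56 at day 3. Of 13 tested macrophage markers, 4 (30.8%) were higher and 5 (38.5%) lower, beside 39.3% and 20.6% of all tested genes. Their median log2 fold change was 0.06, beside 0.25 over all tested genes. Cd68 rose by 4.21 ± 0.24 (adjusted p = 5.72e-06), while Csf1r, which defines these cells, was at 1.69, 4.85 and 4.05 FPKM at day 3 against 11.05, 12.5 and 10.69 in sham. The fibroblast sum was 54.04, 54.74 and 62.22 in sham and 67.21, 103.96 and 201.05 at day 3, the same order of libraries as Timp1. The sums of the endothelial, proximal tubule and lymphocyte markers had that order at day 3 too, and those of the other marker lists did not. Of 10 tested fibroblast markers 4 (40%) were higher, near the 39.3% of all tested genes. The call of Col3a1 (1.65 ± 0.63, adjusted p = 0.0467) was lost in 10 of the 18 other settings tried. The part of these cells in the rises of Lcn2, Slpi, Spp1 and Timp1 was not tested.

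**Figure D4:**
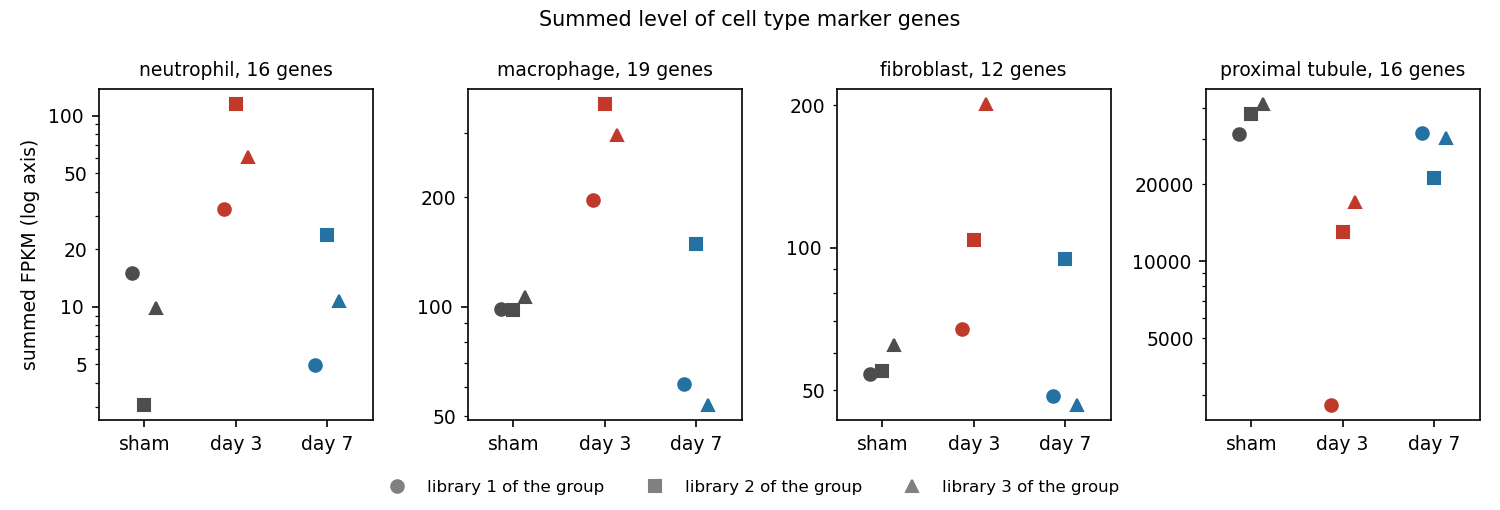
Summed FPKM of cell type marker genes in each library, on log axes with a scale for each panel. Points are libraries, with a symbol for each library number. Neutrophil and macrophage sums are higher in all day 3 libraries than in sham and the proximal tubule sum is lower, and day 7 library 2 (square) has the highest neutrophil, macrophage and fibroblast sums of its group.

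Tubule segment markers fell as the injury transcripts rose. All 16 proximal tubule markers were called lower at day 3 (median log2 fold change -3.05), with 9 of 10 loop and distal tubule and 8 of 10 collecting duct markers. Over all tested genes 20.6% were called lower. Slc22a8, an organic anion transporter of the proximal tubule, went from 152 ± 23.3 to 9.81 ± 4.80 FPKM at day 3 (SD, n = 3). Beside that median, Igfbp7 fell by 0.95 and Cst3 by 0.54 in log2 units.

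Genes whose levels most resembled each biomarker were found by Pearson r of log2(FPKM + 1) over the 9 libraries, among 7402 tested genes whose mean reached 5 FPKM in a group. The libraries share their groups, so r mainly reads the difference between groups, and no p is given. Closest to Slpi were Zfp365 (0.999), Calcb (0.999) and Fosl1 (0.997), and closest to Lcn2 were Sdc1 (0.996), Parp10 (0.995) and Sbno2 (0.995). Sdc1 encodes syndecan-1, a heparan sulfate proteoglycan. Spp1 was most like Hnrnpa1 (0.990) and Fam129a (0.989), Clu most like Cxcl10 (0.986), Ces2e (0.984) and Thoc6 (0.983), and Timp1 most like Myh9 (0.988), Nars (0.988) and Ch25h (0.987). Havcr1, whose sham and day 7 libraries were spread most widely, was most like Serpina10 (0.984), Snrnp70 (0.970) and Bcl3 (0.967). Igfbp7 was most like Itgb5 (0.974), Btd (0.973) and Thra (0.973), and Cst3 most like Lin37 (0.984), Dmwd (0.979) and Sgta (0.978). Timp2 had the lowest best r of the 9, 0.936 with Ptbp1.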

How the data were processed

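Bulk RNA sequencing of mouse kidney was deposited by the authors as FPKM per gene for 9 libraries, with 2 decimals, per the file headers. The submitters' processing notes name HISAT, StringTie, FastQC 0.10.1 and GRCm38 without a role or order, and the annotation release, strand setting and depth are not given in these sources. Since FPKM is relative to the rest of its library, more of an abundant transcript lowers all other values. Symbols came from GENCODE M21, for 55144 of 55385 gene IDs. The biomarker genes and the 21 gene lists (319 genes, 316 matched) were chosen with earlier results of these data known.

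The 13718 genes that reached 1 FPKM in at least 3 libraries were fitted with limma 3.58.1 in R 4.3.3 on log2(FPKM + 1), with 3 groups, all 9 libraries, eBayes with a trend, two-sided tests and Benjamini-Hochberg adjustment over all tested genes at 0.05. The fit was tested on simulated data in which 200 of 13718 genes were changed. Of 2-fold changes, 65% (day 3) and 68% (day 7) were called, and of 4-fold changes 88% and 93%. There were 10 and 9 false calls. A gene that was not called can thus still have changed. Named from each list were up to 3 called genes (5 for families, receptors and proteases) with the largest log2 fold change at day 3 and a group mean of at least 1 FPKM, and for each biomarker the 3 genes of highest Pearson r. Some genes named by this rule are not reported here. Elane, Mpo, Csf1r, Itgb5, Mmp8, Runx1, Sox9, Reck, Timd2, Kap and Hnf4a were named after their values were seen. Alternatives were median-of-ratios scaling, a filter at 5 FPKM or none, quantile normalization, a pseudocount of 0.1, robust eBayes, the 6 libraries of a comparison alone, a replicate block and leaving out each library. A correction for GC content and transcript length by splines in each library was added after seeing the data.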

Additional observations from a re-analysis of the deposited data

Results flagged for a closer look

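For 8 of the 9 biomarker transcripts the difference from sham at day 3 and at day 7 was itself different, tested as the day 7 against day 3 contrast of the same limma fit. On the log2(FPKM + 1) scale the day 7 minus day 3 difference was -4.99 ± 1.35 (SE) in Havcr1 (adjusted p = 0.0125), -6.89 ± 0.75 in Lcn2 (adjusted p = 0.000117), -3.33 ± 0.49 in Spp1 (adjusted p = 0.000539) and -1.69 ± 0.26 in Clu (adjusted p = 0.000627). It was -4.27 ± 0.67 in Timp1 (adjusted p = 0.000757) and -5.86 ± 0.12 in Slpi (adjusted p = 6.37e-08). For these 6 genes day 3 was higher than sham and day 7 was not called. Igfbp7 differed by 0.53 ± 0.16 (adjusted p = 0.0238), having been lowest at day 3, and Cst3 by -0.31 ± 0.11 (adjusted p = 0.0394), its level at day 7 being the lower. The last 2 calls were lost in 5 and 11 of the 18 other settings tried.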

How the results depend on the processing

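Of 486 values of the 9 biomarker transcripts under the alternatives, 447 kept their direction and side of the threshold, 18 lost a call, 4 gained one and 17 changed sign; of 963 values of other named genes at day 3, 932, 31, 0 and 0 did. Changes of sign were in differences that were not called, Cst3 between day 3 and day 7 excepted, and the cause was not tested. For day 7 against sham, leaving out 1 library gave -2.08 (without day 7 library 2) to 0.47 (without sham 2) in Havcr1, -0.82 (without day 7 library 2) to 0.64 (without sham 1) in Lcn2, -0.16 (without day 7 library 2) to 0.15 (without day 7 library 1) in Clu and -0.18 (without day 7 library 2) to 0.98 (without day 7 library 3) in Timp1. With the GC content and length correction Lcn2 was at 0.25 and Igfbp7 at 0.19, and with median-of-ratios scaling Clu was at -0.10. For day 7 against day 3, Timp2 was at 0.076 with median-of-ratios scaling and with quantile normalization and between -0.23 (without day 3 library 1) and 0.16 (without day 7 library 3), and Cst3 was at 0.070 with the correction. Over all tested genes, a filter at 5 FPKM tested fewer genes and moved the calls at day 3 from 8214 to 5104 and between day 3 and day 7 from 7603 to 4973. Calls at day 7 against sham went from 4075 to 856 with the correction and to between 2470 (without sham 2) and 4719 when 1 library was left out, with 2696, 2699 and 2652 without day 7 libraries 1, 2 and 3. The count of biomarker calls at day 7 went from 1 to 2 (Cst3 and Igfbp7) with median-of-ratios scaling, in the 6 libraries alone and without day 3 library 1, and was 1 to 2 over all libraries left out. Under the correction the count stayed at 1, but the gene was Slpi, higher, in place of Cst3.

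The replicate numbers were not taken to pair samples, since not every pair of the same number correlated above 0.1 and library 2 of each group did not correlate best with its own number. The correlations of their deviations from group means were 0.088, -0.009 and 0.143 for day 3 and sham, 0.189, -0.012 and 0.238 for day 7 and sham, and 0.026, 0.012 and -0.054 for day 7 and day 3. With the replicate block the calls were 8212, 3885 and 7540 in the 3 comparisons, the biomarker calls 8, 1 and 8, and no biomarker call changed. Depth is unknown, so values under 1 FPKM, such as Slpi and Timp1 in sham, have no counting interval.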
